A study of Mus musculus with 2 samples.

Results

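The insulin and amylin loci of the mouse are the gene windows of Ins1, Ins2 and Iapp, and CtBP2 occupancy was read there in MIN6 cells. The limits of the 3 windows were fixed by position around the named genes, with no use of measured values. The genes themselves were chosen with earlier results of these data known. Together the windows covered 105 kb of the 2560 Mb of the genome that held reads. On build mm9 they are chr19:52319001-52359000 for Ins1, chr7:149855001-149875000 for Ins2 and chr6:142227001-142272000 for Iapp. Chromatin immunoprecipitation (ChIP) with anti-CtBP2 gave 1 library, and unprecipitated chromatin gave 1 input library, both from MIN6 cells under regular culture. MIN6 is a mouse insulinoma line that secretes insulin in response to glucose, derived from mice carrying a viral large T antigen transgene under an insulin gene promoter. Whether reads of that transgene were placed in these windows was not tested.

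Insulin and amylin are the hormones that beta cells store together and release together. The mouse has a pair of insulin genes: Ins2 has the exon structure of the ancestral gene, and Ins1 is a retroposed copy of it. Iapp encodes islet amyloid polypeptide, also called amylin, and is a much longer gene than either insulin gene. Insulin gene transcription depends on E boxes, bound by NeuroD1 with an E protein partner, on A boxes, bound by Pdx1, and on a Maf element, bound by MafA. CtBP2 is a co-repressor that senses NAD(H) and has no strong sequence preference of its own, so that it reaches DNA through partner proteins.

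Promoters of Ins1 and Iapp are shown for letters like those of the E box, A box and Maf elements. Binding there, by CtBP2 or by other proteins, was not tested. The promoter sequences come from RefSeq on build GRCm38.p6. They run from 250 bases before to 50 bases after the annotated start, read on the plus strand. Positions on that build, chr19:52264047-52264346 for Ins1 and chr6:142298175-142298474 for Iapp, cannot be set beside the mm9 positions of the reads. The table held a promoter for 2 of the 3 genes. Ins2 had no entry. Capitals mark CATCTG, the E box core of insulin genes, and TAAT, the A box core, on either strand.
Ins1: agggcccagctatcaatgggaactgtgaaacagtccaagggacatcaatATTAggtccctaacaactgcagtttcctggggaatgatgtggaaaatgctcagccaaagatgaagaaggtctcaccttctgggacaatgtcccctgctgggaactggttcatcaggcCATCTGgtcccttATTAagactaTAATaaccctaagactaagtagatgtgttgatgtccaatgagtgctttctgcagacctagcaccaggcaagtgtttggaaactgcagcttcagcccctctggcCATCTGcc
Iapp: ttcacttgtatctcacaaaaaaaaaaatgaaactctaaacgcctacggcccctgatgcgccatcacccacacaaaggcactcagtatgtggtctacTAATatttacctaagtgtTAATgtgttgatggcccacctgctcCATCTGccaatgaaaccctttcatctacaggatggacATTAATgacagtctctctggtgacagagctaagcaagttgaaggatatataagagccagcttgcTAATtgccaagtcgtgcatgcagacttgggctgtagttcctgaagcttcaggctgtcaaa

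The Ins1 promoter held 2 matches of CATCTG and the Iapp promoter 1, and 17.2% of the 32851 RefSeq promoter entries of this length held at least 1. In Ins1 the matches begin at bases 167 and 293 of the 300, and in Iapp at base 140. The Ins1 match at base 293 lies after the annotated start, which has 250 bases before it. The wider E box pattern CANNTG, which includes CATCTG, had 4 matches in Ins1 and 3 in Iapp, and was present in 72.3% of all promoters. TAAT had 3 matches in Ins1 and 5 in Iapp, against 58.0% of promoters with at least 1. GCTGA, found in Maf elements, had 2 matches in Ins1 and 0 in Iapp, and 54.2% of promoters held it. TGACG, the core of a cyclic AMP response element, had 0 matches in both, and 20.8% of promoters held it. TATAA had 1 match in each and was found in 24.9% of promoters. All patterns were searched on both strands. A match is a run of letters and was not tested as a binding site.

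The ChIP library held 8474671 distinct nuclear reads and the input library 12471942, with 1 read kept per chromosome, 5 prime end and strand. Neither library had a replicate. Every test compared the reads of these 2 libraries and not conditions, and 95% intervals cover counting error only, since amplified reads without molecular identifiers are not independent molecules. The control IgG precipitation that the labels name was not analysed here, so DNA that precipitates without CtBP2 cannot be told apart from DNA that CtBP2 occupies. No mm9 annotation was used, so exons, introns and untranslated regions are not placed on the reads. Depth is given as distinct reads, each placed 110 bp inward from its 5 prime end, toward the centre of its fragment. The genome mean was 3.31 ChIP and 4.87 input reads per kb. Outside all called CtBP2 regions it was 1.199 ChIP and 4.405 input reads per kb.

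All 3 loci held stretches of raised ChIP reads near the middle of their windows. At Ins2 and Iapp their form was broad rather than a single narrow peak. At Ins1 a narrow site of 0.4 kb held 40 of the 88 ChIP reads of a 4 kb stretch, beside a low broad part. The Ins2 and Iapp stretches stood over input that was at or below the genome mean, while the Ins1 stretch was weaker and its input was raised. The Ins2 window held 127 ChIP reads (95% Poisson interval 106 to 151) and 54 input reads (41 to 70). The Iapp window held 384 ChIP reads (347 to 424) and 299 input reads (266 to 335). The Ins1 window held 146 ChIP reads (123 to 172) and 269 input reads (238 to 303).

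As a share of all distinct reads, ChIP over input was 3.46 at Ins2 (exact 95% interval 2.5 to 4.85), 1.89 at Iapp (1.62 to 2.21) and 0.799 at Ins1 (0.648 to 0.981). The intervals of the 3 loci did not overlap. Each value lay above the median of all genome tiles of the same length, 0.44 for 20 kb, 0.461 for 45 kb and 0.456 for 40 kb. Of the genome tiles, 4.12% reached the ratio of Ins2, 11.2% that of Iapp and 19.8% that of Ins1. With scaling on background bins, which takes the depth of sparse ChIP bins as the baseline, the ratios were 10.8 at Ins2, 5.89 at Iapp and 2.49 at Ins1, and Ins1 then lay above 1, as it also did, at 1.05, in the central 50% of its window.

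**Figure D1:**
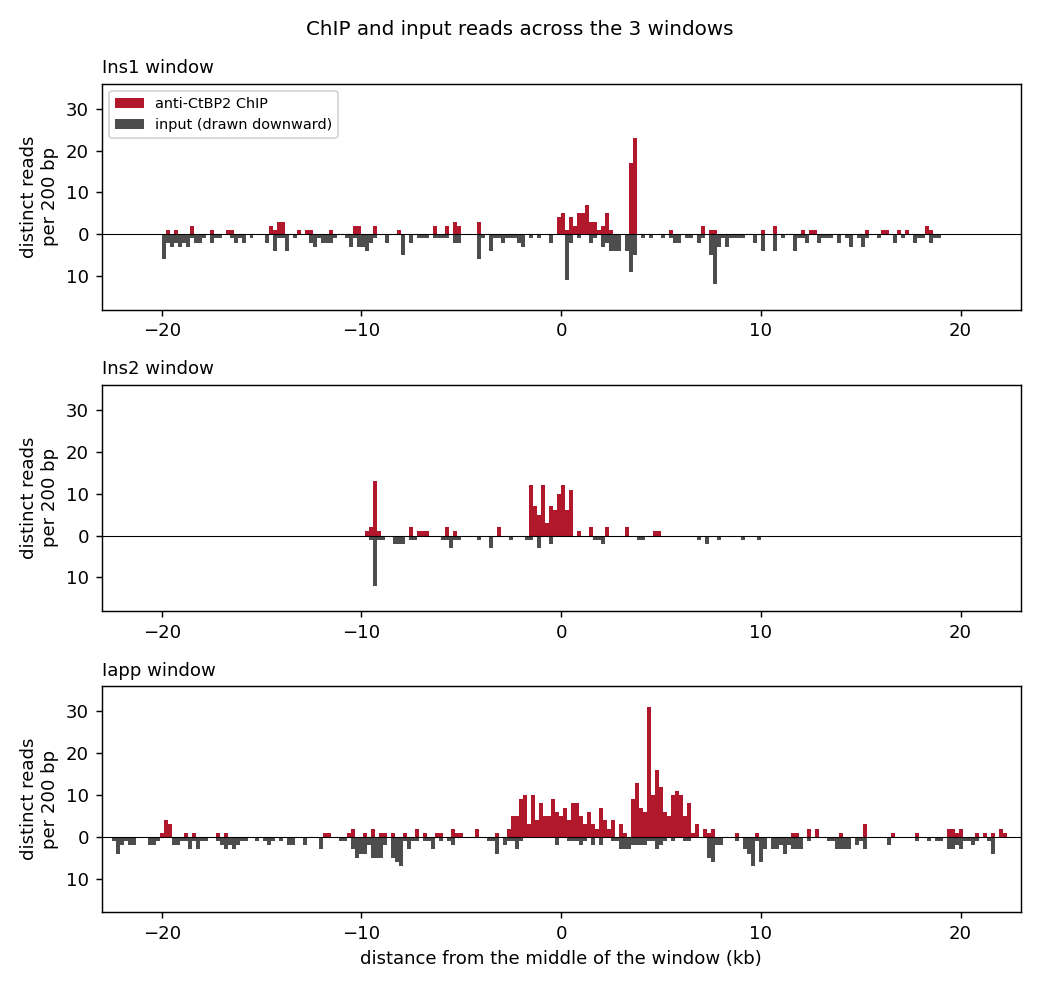
Distinct reads of the anti-CtBP2 ChIP (red, upward) and of input (grey, drawn downward) in steps of 200 bp, against the distance in kb from the middle of the Ins1, Ins2 and Iapp windows. ChIP reads gather near the middle of each window, with single steps there of up to 23 reads at Ins1, 12 at Ins2 and 31 at Iapp, and a step of 13 ChIP and 12 input reads stands at the left edge of the Ins2 window.

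Ins2 had the plainest form. Over the steps from 149863401 to 149866000 of chromosome 7, the ChIP library held 12, 7, 5, 12, 3, 7, 6, 10, 12, 6, 11, 0 and 1 reads per 200 bp. Input held 1, 0, 3, 0, 0, 2 and then 0 in each of the remaining steps. ChIP reads therefore formed a plateau with edges that fell within 1 step. Between these edges the steps held 3 to 12 reads, in 1 place 12 between neighbours of 5 and 3. Such counts are too few to show the shape inside the plateau. In the 1 kb to the left there were 0 ChIP and 2 input reads, and in the 1 kb to the right 2 ChIP and 2 input reads.

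Summed over these 2.6 kb, Ins2 held 92 ChIP reads (74 to 113) and 6 input reads (2.2 to 13.1), a ratio of shares of 22.6 (9.98 to 63.1). ChIP density was 35.4 reads per kb, 10.7 times the genome mean, and input density was 2.31 reads per kb, 0.474 times the genome mean. The stretch took 72.4% of the ChIP reads of the window. Reads of both strands were balanced, with 45 on the plus and 47 on the minus strand. Input was sparse in the rest of the Ins2 window as well, where ChIP was 2.01 and input 2.76 reads per kb.

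The left edge of the Ins2 window held a site of another form. The step from 149855601 to 149855800 had 13 ChIP reads and 12 input reads, the highest ChIP count and the highest input count of any step in the window. It lies beside a further called region outside the window, at 149853551 to 149854100, with 58 ChIP and 44 input reads. Both libraries were dense at this pair of sites, unlike the middle of the window. In the RefSeq gene order of GRCm38.p6, Ins2 stands between Igf2os, an antisense RNA gene of the insulin-like growth factor gene Igf2, and the non-coding RNA gene Gm39116.

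Iapp had the widest stretch. It ran over 10 kb, from 142246801 to 142256800 of chromosome 6, with 318 ChIP reads (284 to 355) and 48 input reads (35.4 to 63.6). The ratio of shares was 9.75 (7.18 to 13.5). ChIP density was 31.8 reads per kb (28.4 to 35.5), 9.61 times the genome mean, and its interval overlapped that of Ins2 (28.5 to 43.4). Input density was 4.8 reads per kb (3.54 to 6.36), 0.985 times the genome mean. The stretch took 82.8% of the ChIP reads in 22.2% of the length of the window.

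Within the Iapp stretch the ChIP reads formed a longer, lower part and a shorter, denser part with a gap between them. The longer part held a called region at 142247301 to 142250400 with 105 ChIP and 8 input reads, or 33.9 and 2.58 reads per kb. Near its start the steps held 5, 5, 9, 10, 3 and 10 ChIP reads, and farther right most steps held 2 to 8. In the gap the steps from 142252201 to 142253000 held 0, 3, 1 and 0 ChIP reads, against 1, 3, 3 and 3 input reads. Beyond the gap the step from 142253801 to 142254000 held 31 ChIP reads (21.1 to 44) and 1 input read, and its neighbours held 6 and 10.

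The denser part of the Iapp stretch was called as regions at 142253001 to 142254700, with 109 ChIP and 15 input reads, and at 142255001 to 142256100, with 45 ChIP and 3 input reads. The region from 142253001 had 64.1 ChIP reads per kb, the highest density among the called regions of this window. The count of the deepest step depended on how reads were placed: it was 18 with the steps moved by 100 bp and 19 when reads were left at their 5 prime ends. Under these placements the deepest step of Ins1, 23 reads as first counted, held 37 and 21, so that the order of Ins1 and Iapp by their deepest step turned. In the RefSeq gene order Iapp follows Slco1a5, an organic anion transporter gene, and precedes the pseudogene Gm52925 and Pyroxd1.

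**Figure D2:**
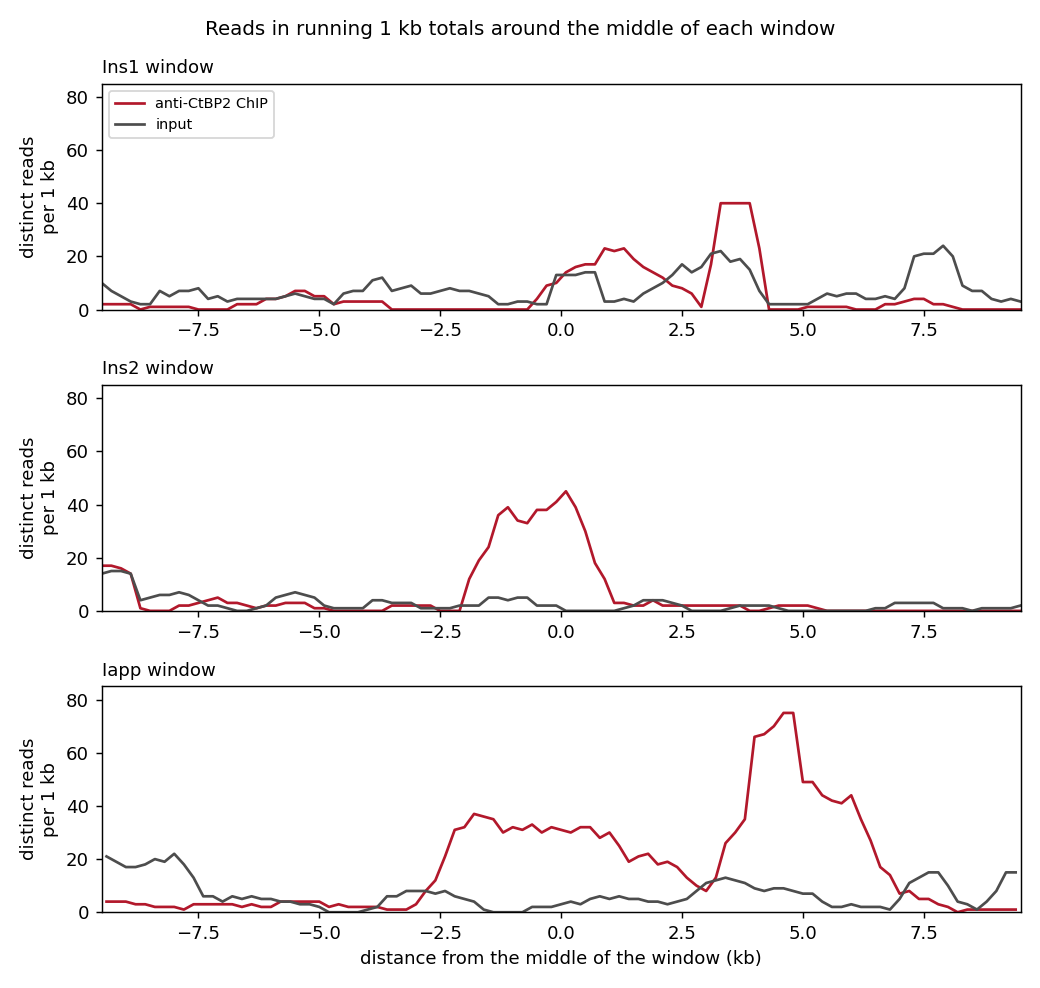
Distinct ChIP (red) and input (grey) reads in running totals over 1 kb, against the distance in kb from the middle of each window. The Ins2 stretch is 2.6 kb long and the Iapp stretch 10 kb long with a gap, and at Ins1 a low broad part is followed by a narrow site where input rises too.

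Ins1 held a low broad part and a narrow site. The broad part ran from 52338801 to 52341400 of chromosome 19, began 0.2 kb left of the middle of the window and held 47 ChIP reads (35 to 63) and 22 input reads (13.8 to 33.3). Its limits come from 1 kb windows with at least 4 times the genome mean of ChIP reads, with empty ends trimmed. Under 3 times, it was joined to the narrow site. The Ins2 and Iapp stretches had the same limits under 3 and 4 times. The steps of the broad part of Ins1 held 1 to 7 ChIP reads each, and none of the 13 steps was empty of ChIP reads. In the 1 kb to its left there were 0 ChIP and 3 input reads. ChIP density was 18.1 reads per kb (13.3 to 24), below the intervals of the Ins2 and Iapp stretches, and the ratio of shares was 3.14 (1.86 to 5.48).

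A single step, from 52339201 to 52339400, took 11 of those 22 input reads and held 1 ChIP read. Farther right, the step from 52346601 to 52346800 held 12 input reads and again 1 ChIP read. These were the deepest input steps of the Ins1 window, and neither had raised ChIP reads.

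The narrow Ins1 site, from 52342401 to 52342850, held 40 ChIP and 14 input reads, or 88.9 and 31.1 reads per kb. Its plus strand reads had their median 5 prime end at 52342480 and its minus strand reads at 52342739, 259 bp apart, where the fragment length of the ChIP library was 220 bp. The broad part and this site together formed a stretch of 4 kb with 88 ChIP reads (71 to 108) and 52 input reads (38.8 to 68.2), a ratio of 2.49 (1.75 to 3.58). In the RefSeq gene order the neighbours of Ins1 are the pseudogene Gm4115 and the non-coding RNA gene Gm41860.

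**Figure D3:**
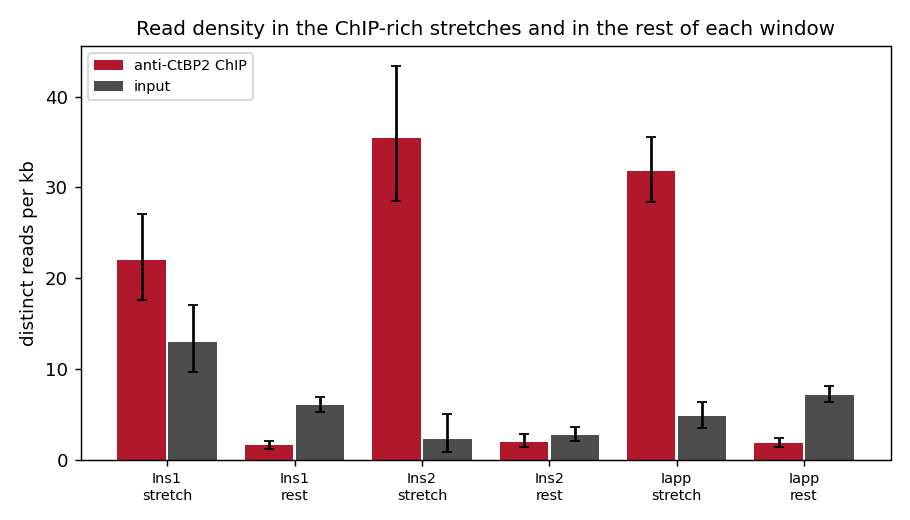
Distinct reads per kb of the ChIP (red) and input (grey) libraries in the ChIP-rich stretch near the middle of each window and in the rest of the window, with 95% Poisson intervals as error bars. ChIP was 22, 35.4 and 31.8 reads per kb in the Ins1, Ins2 and Iapp stretches, against 1.61, 2.01 and 1.89 in the rest of the windows, which at Ins2 includes the site at the left edge.

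Outside the stretches near the middle, the ratio of shares at Ins1 and Iapp was close to that of the genome outside called regions. The rest of the Ins1 window held 58 ChIP and 217 input reads over 36 kb, a ratio of 0.393 (0.289 to 0.528), and the rest of the Iapp window 66 and 251 reads over 35 kb, a ratio of 0.387 (0.29 to 0.509). The rest of the Ins2 window held 35 and 48 reads over 17.4 kb, a ratio of 1.07 (0.674 to 1.69). Without the stretch at its left edge as well, it held 18 and 34 reads over 16.4 kb, a ratio of 0.779 (0.414 to 1.42). The genome outside called regions had a ratio of 0.401, which lies within the intervals of Ins1 and Iapp and below both of those of Ins2. Densities differed more: input in the rest of the windows was 6.03 reads per kb at Ins1, 2.76 at Ins2 and 7.17 at Iapp, against 4.405 in the genome outside called regions. Repeated reads were fewer at the loci than in the libraries as wholes. Reads per distinct position were 1.74, 1.62 and 1.93 in ChIP at Ins1, Ins2 and Iapp, against 4.12 over the library. In input they were 1.12, 1.19 and 1.06, against 1.67. The library values are means over all reads, and no value for genome tiles was taken, so few repeats cannot be called particular to these loci. The nearest called regions left of Ins1, Ins2 and Iapp held 99 ChIP reads at 94 positions, 98 at 58 and 30 at 20.

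Regions were called over the whole genome with a Poisson test of 200 bp windows, set every 50 bp. Only windows that held a read in either library were tested. The expected count was the genome mean or scaled input over 1, 5 or 10 kb, whichever was highest. The threshold was a Benjamini-Hochberg adjusted p of at most 0.01 over 26834433 windows with at least 3 times the expected count. Called windows made up 38 of 197 (19.3%) at Ins2, 80 of 686 (11.7%) at Iapp and 7 of 583 (1.2%) at Ins1, against 1.00% of all windows tested in the genome. The share at Ins1 was thus close to the background. Since windows with no read were left out, the shares of Ins2 and Iapp have unlike denominators. Of the 100 steps of 200 bp at Ins2, 69 held no input read, against 89 of 225 at Iapp. After joining, Ins2 held 2 regions over 2600 bp, Iapp 5 over 6400 bp and Ins1 2 over 650 bp. At least 1 called region was found in 18.6% of 20 kb tiles, 34.2% of 45 kb tiles and 31.4% of 40 kb tiles, so that holding a region is itself not rare.

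The deepest windows of these regions had folds from 5.77 to 25.3. At Iapp the summit of the region from 142253001 held 31 ChIP reads against 1.22 expected, a fold of 25.3 (17.2 to 36) with an adjusted p of 4.7e-30. At Ins1 the narrow site had 37 ChIP reads against 2.45 expected, a fold of 15.1 (10.6 to 20.8, adjusted p 3.8e-28). The Ins2 plateau was called as 1 region of 2300 bp, from 149863351 to 149865650, with a summit of 13 reads against 0.679 expected, a fold of 19.1 (10.2 to 32.7, adjusted p 8.6e-11). The other Ins1 region, 200 bp inside the broad part, passed narrowly with 8 reads against 1.39 expected, a fold of 5.77 (2.49 to 11.4) and an adjusted p of 0.0096, and it was lost under 3 of the other settings. At these loci 6 of the 9 regions had a summit fold above 9.96, the median of all 29388 regions.

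Input was low at some of these regions. At the insulin and amylin loci 4 of the 9 regions had less input per kb than the genome mean: the Ins2 plateau, the region inside the broad part of Ins1, and the first and last regions of Iapp. Over the genome 576 of the 29388 regions (1.96%) did, and the median was 52.5 input reads per kb. The 9 regions are not separate sites, since 5 of them lie in the same Iapp stretch. The Ins1 region is only 200 bp long and held 0 input reads. The broad part around it had 8.46 input reads per kb, above the genome mean of 4.87. The ChIP density of the plateaus was low for a called region. The Ins2 plateau had 39.6 reads per kb and the first Iapp region 33.9, against a median of 108 over all regions. These values describe the members and were not tested.

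To compare like with like, ChIP-rich stretches were defined over the whole genome as runs of 1 kb windows with at least 3 times the genome mean of ChIP reads. The rule and the comparison were chosen after the profiles were seen and are given as a description, with no test. The Ins2 and Iapp stretches were among 8 of the 6544 stretches of 2 kb or more (0.122%) that had input at or below the genome mean. They held 35.4 and 31.8 ChIP reads per kb, against 11.4 to 14 in the other 6. Without the length limit, 637 of 32317 stretches (1.97%) had such input, a larger share than among those of 2 kb or more. Over all 6544 stretches the medians were 109 ChIP and 37.5 input reads per kb, and the median ratio of shares was 4.27. Ins2 ranked 1 of 6544 by the ratio of ChIP to input, Iapp ranked 475, Ins1 ranked 4934 and the stretch at the left edge of the Ins2 window, from 149853401 to 149856000, ranked 5573. With a limit of 4 times the genome mean, 2 of 5675 stretches of 2 kb or more had input at or below the mean. These were Ins2 and Iapp. With 2 times, 72 of 8387 did, with Ins2 among them. Iapp, then 11 kb long with 5.91 input reads per kb, was not among them and ranked 1651 by the ratio. At any length the shares were 173 of 27357 (0.632%) with 4 times and 6778 of 51104 (13.3%) with 2 times.

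**Figure D4:**
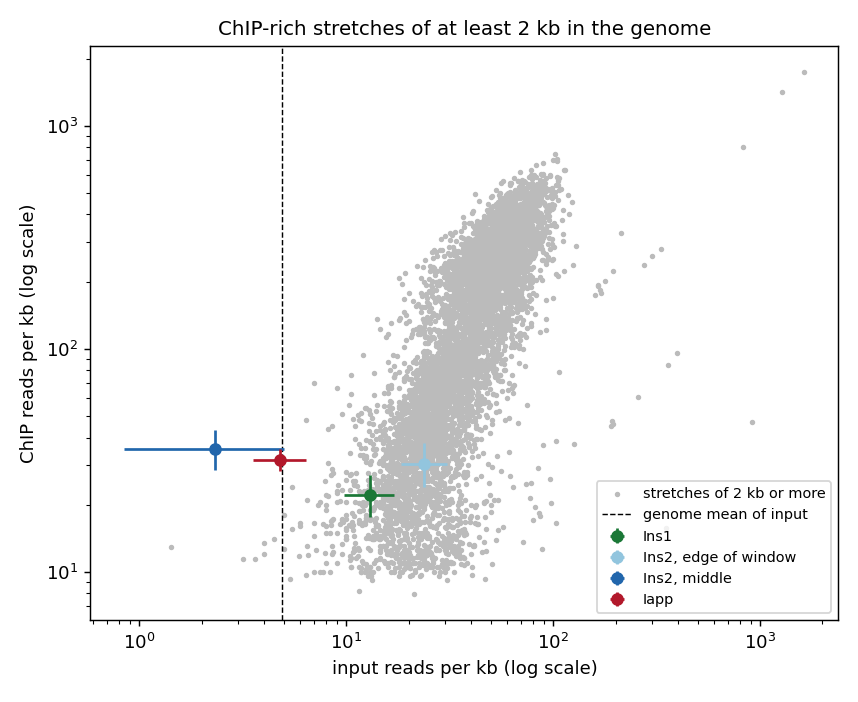
ChIP against input reads per kb (log scales) for the 6544 ChIP-rich stretches of at least 2 kb in the genome (grey points), with the stretches of the Ins1, Ins2 and Iapp windows in colour and 95% Poisson intervals as error bars. The dashed line is the genome mean of 4.87 input reads per kb. Ins2 (middle of its window) and Iapp lie left of the line, away from the main cloud, and Ins1 lies at its lower left edge.

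The loci also differed in what surrounds them. Ins1 stood alone: the nearest called regions outside its window were 289 kb to the left and 280 kb to the right, where the median distance from the centre of a 10 kb bin of the genome to a called region was 40.8 kb. No region was called in the 100 kb on either side, and ChIP density there was 1.03 reads per kb. Ins2 lay in a richer neighbourhood, with 10 further regions within 100 kb of the window and 7.43 ChIP reads per kb. To the right of its window the nearest region was 68.5 kb away.

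Around Iapp, 3 further regions were called within 100 kb, and the nearest on the left was 200 kb away. The nearest on the right, 22.1 kb from the window at 142294101 to 142294650, held 207 ChIP and 49 input reads in 550 bp, or 376 and 89.1 reads per kb. This neighbour was narrow and dense in both libraries. The Iapp regions found by the same call were 250 to 3100 bp wide, with 28 to 64.1 ChIP and 2.58 to 8.82 input reads per kb. Each was thus sparser in both libraries than this neighbour, while some were wider and some narrower. The whole Iapp stretch was defined by another rule, so its width cannot be set beside that of this neighbour.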

How the data were processed

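The deposited files hold 1 aligned read per line on build mm9. SAMtools 0.1.19, bedtools 2.17.0 and BWA (version not given) are named in the submitters' processing notes. Mapping-quality filters and the placement of reads with several matches are not given in the sources used here, which matters for Ins1 and Ins2, genes of related sequence. The name column of the deposited files, taken as a count, is 1 on every line. Read numbers are thus unnormalized.

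Reads on 21 nuclear chromosomes were kept once per 5 prime end and strand and moved by 110 bp, from a strand cross-correlation searched from 80 to 400 bp. Input was scaled by total distinct reads (0.679). Called windows within 200 bp were joined and high-input windows were kept. The call was also run on simulated reads with planted sites. Their background was even in ChIP and input, unlike the real libraries, so that run cannot show how the call performs at these loci. Ratio intervals are exact binomial intervals and read counts have exact Poisson intervals. Python 3.11.15, NumPy 2.4.6, SciPy 1.17.1, pandas 2.3.3 and matplotlib 3.10.9 were used. All 3 members are named, with called regions, deepest steps and nearest regions. The members and lists were chosen with earlier results of these data known.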

Additional observations from a re-analysis of the deposited data

How the results depend on the processing

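No paired analysis was possible because only 1 ChIP and 1 input library were compared. All 3 ratios of ChIP to input left their counting intervals with all deposited reads (0.504 at Ins1, 1.92 at Ins2, 1.39 at Iapp). They also did so in the central 50% of the windows (1.05, 8.34 and 2.88). The order of the loci was Ins2, Iapp, Ins1 in each case. Background-bin scaling (2.49, 10.8 and 5.89) multiplies every ratio by the same constant, so it moved all 3 together and could not change their order. The deepest step of Ins1, 23 reads, was 37 with steps moved by 100 bp, 36 with all deposited reads and 37 with steps of 500 bp. That of Ins2, 13 reads, was 25 with all deposited reads and 24 with steps of 500 bp. That of Iapp, 31 reads, was 18 with steps moved by 100 bp, 71 with all deposited reads and 19 with no shift. Of the 2 regions at Ins1, 1 was left with high-input windows left out, at an adjusted p of 1e-05 and with a fixed shift of 100 bp. Ins2 kept 1 of 2 without high-input windows, since the edge site with dense input was lost. Iapp went to 3 regions with background-bin scaling or input over 10 kb only and to 2 with windows of 500 bp, while the called length was 7400, 7400 and 8350 bp, against 6400 bp. Steps of 500 bp are wider than those of 200 bp and all deposited reads include repeats, so these deepest-step counts are not on the scale of the first ones. The cause of the other changes was not tested. Called regions were found at all 3 loci under each setting run. With 1 library per group and few reads per step, single steps support no order among neighbours.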

Other observations

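The other 6 wide stretches with input at or below the genome mean, found while placing Ins2 and Iapp, are given by position, since no mm9 annotation was used. The one with the highest ratio of shares, 13.2, lay on chromosome 2 at 69065201 to 69068000 with 36 ChIP and 4 input reads. The remaining 5, with ratios of 4.42 to 5.26, lay on chromosome 2 at 105539601, chromosome 19 at 44235401, chromosome 6 at 66973001, chromosome 14 at 18004401 and chromosome 5 at 127009201, and each held 24 to 28 ChIP reads. With so few reads these stretches were near the limit of the rule. They were noticed in the same data that defined the rule, and no explanation was tested.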
